A study of Mus musculus with 14 samples.

Results

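The genes described here are 34 mouse genes known from earlier work to be imprinted, at least in some tissue, and listed as expressed in the cortex. They were chosen as a list of known imprinted genes, by symbol, at a time when earlier results of these data were known. They are 34 of the 24444 genes in each of 2 deposited expression tables. They lie in 17 imprinted domains, with 12 of the genes on chromosome 7, 6 on chromosome 6 and 4 on chromosome 12. By their annotation 28 encode proteins and 6 are non-coding RNAs.

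Polyadenylated RNA from whole mouse cortex was sequenced in 14 libraries. The miR29Nestin group (3 libraries, postnatal day 40) had floxed alleles at both genomic loci that encode the microRNA-29 (miR-29) family, deleted by the Cre recombinase of a Nestin-Cre line, and was compared with miR29WT cortex of the same age (3 libraries). The Dnmt3a-mi5 group (4 libraries, 4.5 months) carried a knock-in allele made by CRISPR/Cas9, in which each of the 5 miR-29 target sites of the Dnmt3a 3′ UTR was altered, and was compared with Dnmt3a-WT cortex of that age (4 libraries). Dnmt3a encodes a DNA methyltransferase, and the study addressed how miR-29 acts on DNA methylation in the maturing brain. Nestin-Cre is active in neural progenitors, so microglia, vessels and meninges largely keep the floxed loci. The labels do not give the Cre or flox status of miR29WT mice, and do not state the litters.

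An imprinted gene is transcribed mainly from the chromosome inherited from the mother or mainly from the one inherited from the father. The difference is set by DNA methylation placed in the germ line at a control region and then kept through cell division, with help from the zinc finger protein ZFP57 and its partner TRIM28. Many imprinted genes are abundant in the brain, where they are known for roles in growth, feeding, maternal care and synapses. The tables hold the total RNA of each gene and no information on the parental allele, so the allele named for a gene below is background.

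The sequences that follow are the mature miR-29 forms, which share bases 2 to 8 (the seed, in capitals), from RefSeq (GRCm38.p6). The DNA match to that seed is TGGTGCT.
miR-29a-3p: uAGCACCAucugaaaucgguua
miR-29b-3p: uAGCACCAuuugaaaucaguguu
miR-29c-3p: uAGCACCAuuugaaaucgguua
The Dnmt3a 3′ UTR holds 5 such matches, the number of sites altered in Dnmt3a-mi5 mice. The first and the last are shown in wild type sequence, followed by the match in the 3′ UTR of each tested imprinted gene that has one (GENCODE M21, GRCm38, plus strand in every case, TGGTGCT in capitals). They are shown because these mRNAs could be read by miR-29 directly.
Dnmt3a site 1, chr12:3908572-3908578: cgacttcataaTGGTGCTttcaaaacagc
Dnmt3a site 5, chr12:3911474-3911480: gggtcccaagcTGGTGCTaattcctctca
Mest, chr6:30748300-30748306: ctaagagcaaaTGGTGCTgaatacttttt
Usp29, chr7:6963940-6963946: ataaggctaaaTGGTGCTtttcctgtttt
Peg10, chr6:4758865-4758871: agtcaaggaggTGGTGCTggtgtgagttc

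Few of these genes carried a match. Of the 23 protein-coding imprinted genes tested in the miR29 table, 3 had TGGTGCT in the longest annotated 3′ UTR, beside 2097 of 11735 tested genes (17.9%). Zim1, too low to be tested, had 3 matches. Among the non-coding RNAs, whose whole longest transcript was searched, Meg3 had 4 matches, H19 had 1 and Peg13 had 1. Of the protein-coding genes called changed in miR29Nestin cortex below, Mest was the only one with a match, and it was higher. A match is a description of letters and does not show that the site is used.

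Counts below are normalised counts recovered from the deposited variance-stabilised log2 values. Log2 differences are on the deposited scale, which understates the change of low genes. A gene was tested when its mean exceeded the lowest value of its table by 1 log2 unit or more, and called at a limma Benjamini-Hochberg adjusted p under 0.05 over all tested genes. Recovered depths were about 11800000 to 13000000 reads in miR29Nestin and 9200000 to 14500000 in miR29WT libraries, while depth is unknown in the Dnmt3a table. Cortical excitatory neuron markers were abundant in every library and the summed level of 11 hypothalamic markers stayed at or under 121 counts. Striatal marker sums ran from 5842 to 13669 in miR29Nestin and from 7697 to 13031 in miR29WT libraries. They ran from 6089 to 13327 in Dnmt3a-mi5 and from 5320 to 9221 in Dnmt3a-WT libraries. None of the 8 striatal markers was called in either table. Dnmt3a itself averaged 5529 ± 300 counts in miR29Nestin and 1662 ± 59.2 in miR29WT cortex (SD, n = 3 each), and 2079 ± 151 in Dnmt3a-mi5 and 1145 ± 84.6 in Dnmt3a-WT cortex (SD, n = 4 each). In such bulk samples, fewer cells of a type and less RNA per cell cannot be told apart.

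The imprinted genes spanned a wide range of levels. On the scale of normalised counts per kilobase of annotated exon, the highest in miR29Nestin and miR29WT cortex were Snrpn (5068 and 4604), a splicing protein gene, Meg3 (3665 and 3264), a long non-coding RNA, and Nap1l5 (2929 and 2056), which encodes a protein of the nucleosome assembly family. Snrpn shares its locus with Snurf, so its level depends on how reads were split between them. At the low end, Phlda2, known from the placenta, had no reads in the miR29 table, and H19, a fetal non-coding RNA, had 0.932 to 4.01 counts in miR29Nestin and 0.832 to 3.89 in miR29WT libraries. Airn, the non-coding RNA transcribed across Igf2r, had at most 10.0 counts in miR29Nestin and at most 4.96 in miR29WT libraries. The 7 genes below the filter in both tables were Dlk1, H19, Zim1, Magel2, Mkrn3, Phlda2 and Airn, and in the Dnmt3a table Ddc was below it too. Of these, Phlda2, H19 and Airn had few or no reads in any library.

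Loss of miR-29 came with changes at a minority of imprinted loci, in both directions. Nap1l5, Nnat, Blcap, Mest, Meg3 and Rasgrf1 were higher in miR29Nestin cortex, by 1.12 to 1.44-fold, and Grb10 and Ppp1r9a were lower. Of 27 tested genes, 8 were called, where 19.1% of all 12014 tested genes were called. The 6 called higher stand beside a background of 9.02%, and the 2 called lower beside 10.0%. At an unadjusted p under 0.05 there were 12, where 33.0% of all tested genes passed. The tested genes split into 14 above and 13 below 0, with a median log2 difference of 0.0046 against −0.0052 over all tested genes. Their median absolute difference was 0.14, against 0.10 over all tested genes. Several of the genes share a locus, so they are not independent of each other.

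**Figure D1:**
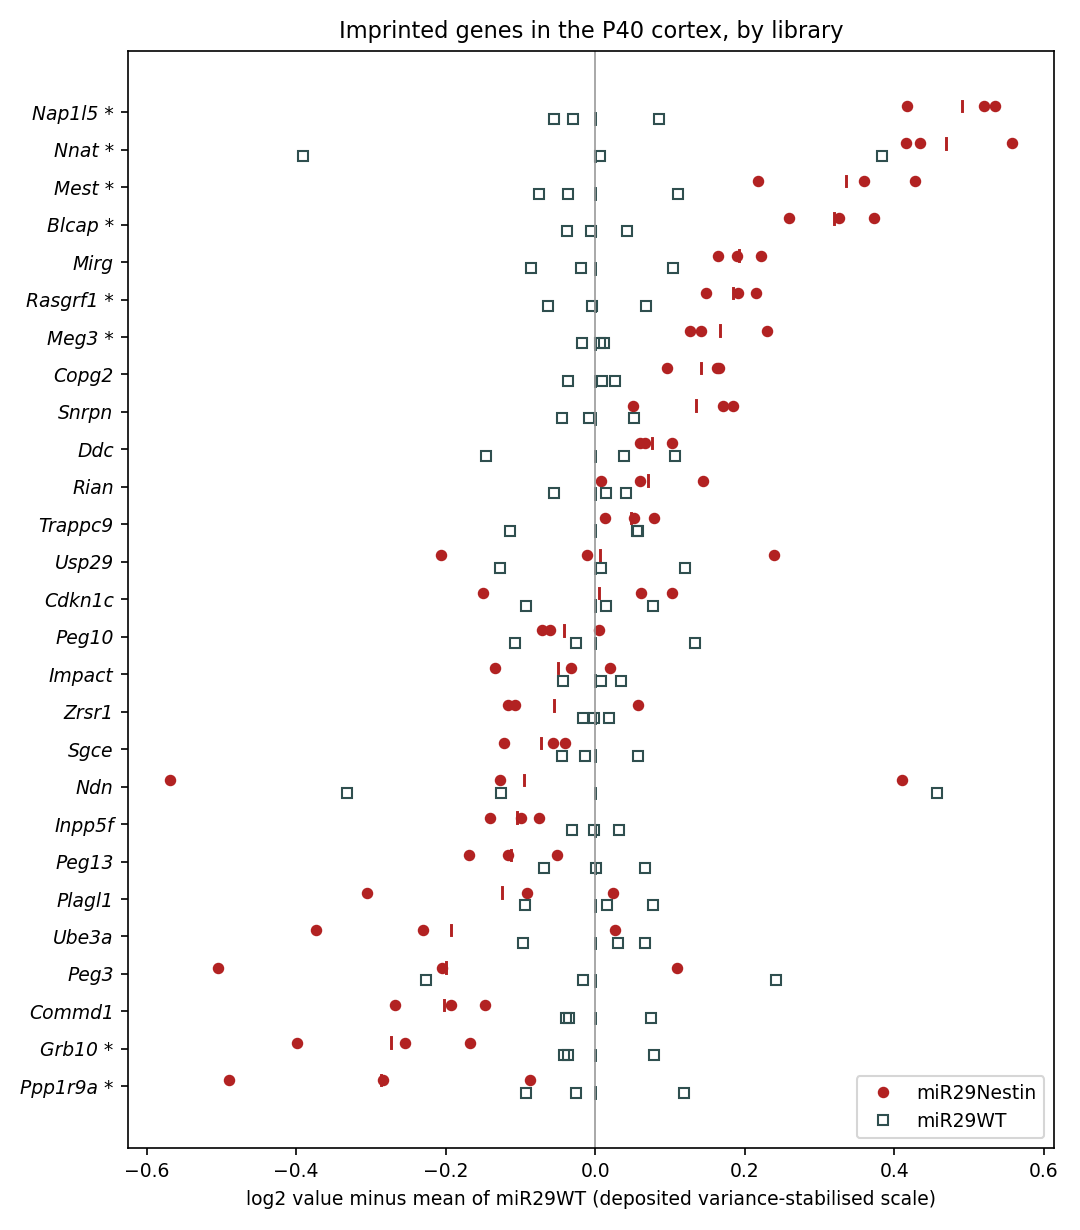
Imprinted genes tested in day 40 cortex, ordered by difference. Each point is 1 library (miR29Nestin filled circles, miR29WT open squares), as its deposited log2 value minus the miR29WT mean of that gene, and short lines mark group means. Asterisks mark the 8 genes called by limma. Nap1l5 shows the widest separation of the groups, and Ndn the widest scatter within them.

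The paternally expressed Nap1l5, an intronless gene inside an intron of Herc3 (chr6:58905233-58907076, minus strand, GRCm38 as for all gene positions here), had the smallest p among the imprinted genes. It had 5118, 5571 and 5514 counts in miR29Nestin libraries, against 4031, 3704 and 3638 in miR29WT libraries. Every miR29Nestin library lay above every miR29WT library. The log2 difference was 0.49 (SE 0.05), 1.42-fold, with a limma adjusted p of 1.90e-04. Its host Herc3, on the opposite strand, averaged 2345 ± 109 counts in miR29Nestin and 2530 ± 155 in miR29WT cortex (SD, n = 3 each), a log2 difference of −0.10 with a limma adjusted p of 0.25. The kits were stranded, but whether the authors' counting used strand is not given in the sources used here. It is therefore not known whether reads of such antisense pairs were kept apart.

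The Nnat-Blcap locus was higher at both genes. Blcap, which encodes a small membrane protein linked to apoptosis (chr2:157556362-157571274, minus strand), had 1168, 1066 and 1125 counts in miR29Nestin libraries, against 893, 835 and 858 in miR29WT libraries. These groups did not overlap, and the log2 difference was 0.32 (SE 0.05, limma adjusted p 0.0027). Nnat (neuronatin), a small proteolipid of the endoplasmic reticulum expressed from the paternal allele, sits inside an intron of Blcap on the opposite strand (chr2:157560078-157562522). It had 949, 934 and 1048 counts in miR29Nestin libraries, against 461, 910 and 661 in miR29WT libraries. The miR29Nestin values were tight, the miR29WT values spread over 0.78 units of the deposited log2 scale, and the second miR29WT library came close to the mutant range. The log2 difference was 0.47 (SE 0.15, limma adjusted p 0.047). The Nnat call was lost without any single library other than miR29WT 2, with log2 differences of 0.49, 0.50 and 0.43 without miR29Nestin 1, 2 and 3, 0.27 without miR29WT 1 and 0.47 without miR29WT 3. It was also lost with sex as a term (0.36, limma adjusted p 0.064), as Y-linked transcripts placed 1 of 3 miR29Nestin and 2 of 3 miR29WT mice as male.

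In the Mest domain on chromosome 6, 1 of the 2 genes passed. Mest, a paternally expressed hydrolase of the endoplasmic reticulum (chr6:30723547-30748465, plus strand), had 499, 603 and 567 counts in miR29Nestin libraries, against 392, 451 and 377 in miR29WT libraries. The groups did not overlap, and the log2 difference was 0.34 (SE 0.07, limma adjusted p 0.0098). Copg2, a coat protein gene for vesicles whose end overlaps that of Mest on the opposite strand, had 1144, 1085 and 1146 counts in miR29Nestin libraries, against 1010, 974 and 1026 in miR29WT libraries. Its groups did not overlap either, but at a log2 difference of 0.14 (SE 0.05) the limma adjusted p was 0.081. Nap1l5, Blcap and Mest were called in all 14 of the alternative fits made. Of the other called genes, Meg3 was called in 12 of these 14 fits, Grb10 in 11, Rasgrf1 in 9, Ppp1r9a in 6 and Nnat in 5. For some of these genes, only part of the fits that lost the call are named.

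In the Dlk1-Dio3 domain on chromosome 12, Meg3 was the 1 maternally expressed RNA of 3 that passed. Meg3 (chr12:109541001-109571726, plus strand) had 64465, 69270 and 65140 counts in miR29Nestin libraries, against 58317, 59284 and 59531 in miR29WT libraries. The miR29WT libraries were nearly equal and all lay below the mutant ones. The log2 difference was 0.17 (SE 0.04, limma adjusted p 0.012). Without miR29Nestin 2 it was 0.13 and the call was lost (adjusted p 0.052). Mirg, a host transcript of microRNAs, had 369, 348 and 357 counts in miR29Nestin libraries, against 268, 328 and 288 in miR29WT libraries. These groups did not overlap, and the log2 difference was 0.19 (SE 0.07, limma adjusted p 0.065). Rian, which hosts small nucleolar RNAs, had 7071 to 7789 counts in miR29Nestin and 6761 to 7239 in miR29WT libraries. It had a log2 difference of 0.07 (SE 0.05, limma adjusted p 0.35), and its groups overlapped. The table rows of the 19 microRNAs inside these 3 genes held at most 0.943 counts in any miR29 library.

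Dlk1, the paternally expressed gene of that domain, encodes a membrane protein related to Notch ligands (chr12:109452823-109463336, plus strand). It had 68.5, 102 and 62.0 counts in miR29Nestin libraries, against 16.7, 20.5 and 19.4 in miR29WT libraries. Every mutant library was over 3 times as high as the highest wild type library. Dlk1 fell below the filter, and only the fit with no filter tested it (log2 difference 0.61, SE 0.08, limma adjusted p 2.96e-04). Summed leptomeningeal markers were also higher, at 1613, 1614 and 1323 counts in miR29Nestin and 833, 1202 and 1256 in miR29WT libraries, with 5 of the 10 tested markers called higher, of 12 listed and none at 0. The part of these cells in the Dlk1 values was not tested.

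Rasgrf1, a calcium-activated exchange factor for Ras expressed from the paternal allele, was the remaining gene called higher (chr9:89909908-90026977, plus strand). It had 5015, 5169 and 5262 counts in miR29Nestin libraries, against 4495, 4304 and 4731 in miR29WT libraries. The groups did not overlap, and the log2 difference was 0.18 (SE 0.05, limma adjusted p 0.023). The call was lost without miR29Nestin 2 (0.18) or 3 (0.17), and without miR29WT 1 (0.18) or 2 (0.15).

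Grb10 and Ppp1r9a were called lower. Grb10, an adaptor that restrains insulin and insulin-like growth factor receptors, is expressed from the paternal allele in neurons and from the maternal allele elsewhere (chr11:11930508-12038683, minus strand). It had 419, 364 and 455 counts in miR29Nestin libraries, against 511, 514 and 571 in miR29WT libraries. All mutant values lay below all wild type values, with a log2 difference of −0.27 (SE 0.07, limma adjusted p 0.022). The call was lost without miR29Nestin 2 (−0.21), miR29WT 2 (−0.29) or miR29WT 3 (−0.23). Ddc, the neighbouring dopa decarboxylase gene, had a log2 difference of 0.08 (SE 0.08, limma adjusted p 0.53).

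Ppp1r9a encodes neurabin, a scaffold for protein phosphatase 1 at dendritic spines (chr6:4902917-5165661, plus strand). It had 2775, 3231 and 3730 counts in miR29Nestin libraries, against 3714, 3900 and 4334 in miR29WT libraries. The highest mutant library overlapped the lowest wild type library, and the log2 difference was −0.29 (SE 0.09, limma adjusted p 0.049). The call was lost without any single library other than miR29Nestin 3, at −0.19 and −0.29 without miR29Nestin 1 and 2, and −0.33, −0.30 and −0.23 without miR29WT 1, 2 and 3. Ppp1r9a was 1 of 6 of the 34 imprinted genes that had the library order of the striatal marker sum within both groups, with Peg3, Ube3a, Zrsr1, Zim1 and Airn. That sum was 5842, 9504 and 13669 in miR29Nestin and 7697, 11711 and 13031 in miR29WT libraries. It rose with replicate number in both groups, so striatal level and replicate number cannot be told apart. Zim1 and Airn were below the filter, and the share of all tested genes with this order is not given here. Cortical excitatory markers were lower in mutant cortex as well (62707 to 66732 in miR29Nestin and 71417 to 82440 in miR29WT libraries, with 5 of 8 called lower). Astrocyte marker sums were 55454 to 59937 in miR29Nestin and 50452 to 52593 in miR29WT libraries, with 4 of 8 called higher and 1 called lower. The part of tissue composition in these values was not tested.

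Counted by overlap, 8 imprinted genes had miR29Nestin libraries all above miR29WT (18.6% of all tested genes did) and 3 had them all below (18.7%). The lower ones besides Grb10 were Commd1 and Inpp5f. Commd1, a copper and NF-κB regulator, had 177, 167 and 152 counts in miR29Nestin libraries, against 229, 201 and 202 in miR29WT libraries. The log2 difference of −0.20 (SE 0.07) had a limma adjusted p of 0.053. Inpp5f, a phosphoinositide phosphatase, had 1384, 1457 and 1430 counts in miR29Nestin libraries, against 1508, 1584 and 1542 in miR29WT libraries, which was a difference of −0.11 (SE 0.05, limma adjusted p 0.17).

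When replicate numbers were used as a block, 11 imprinted genes passed rather than 8. Over all tested genes, 3037 passed rather than 2289. The labels do not state that libraries of the same number belong together. The added genes were Snrpn, Commd1 and Peg3. Snrpn had 11318, 11214 and 10292 counts in miR29Nestin libraries, against 10311, 9879 and 9632 in miR29WT libraries (log2 difference 0.14, limma adjusted p 0.079 unblocked and 0.025 blocked). Peg3, a paternally expressed zinc finger gene, had 1273, 1610 and 2047 counts in miR29Nestin libraries, against 1583, 1860 and 2261 in miR29WT libraries. Each mutant library was below the wild type library of its number, though the groups overlapped widely (−0.20, limma adjusted p 0.37 unblocked and 0.013 blocked). Commd1 had a blocked adjusted p of 0.037 in limma.

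The rest of the Prader-Willi and Angelman domain did not pass. Ube3a, the ubiquitin ligase expressed from the maternal allele in neurons and lost in Angelman syndrome, had 178, 211 and 281 counts in miR29Nestin libraries, against 245, 282 and 293 in miR29WT libraries. The groups overlapped, and the log2 difference was −0.19 (SE 0.10, limma adjusted p 0.19). Without miR29Nestin 3 it was −0.30 and was called (adjusted p 0.024). Ndn, a MAGE family gene, ranged from 1007 to 2161 counts in miR29Nestin and from 1219 to 2237 in miR29WT libraries (−0.10, SE 0.23, limma adjusted p 0.82). Its relative Magel2 was low, with 6.53, 8.02 and 7.25 counts in miR29Nestin libraries, against 9.87, 19.4 and 17.5 in miR29WT libraries. Those groups did not overlap, and the fit with no filter gave a limma adjusted p of 0.12. Mkrn3, known as a brake on puberty, had at most 26.3 counts in any library of the miR29 table, and its groups overlapped.

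No other tested imprinted gene passed in miR29Nestin cortex. In the Peg3 domain, the deubiquitinase gene Usp29, which carries a seed match, had a log2 difference of 0.0071 (SE 0.10), and Zim1 had 11.2, 22.1 and 29.0 counts in miR29Nestin libraries, against 2.19, 3.89 and 13.3 in miR29WT libraries. Zim1 overlapped between the groups and had a limma adjusted p of 0.0501 in the fit with no filter. In the Peg10-Sgce domain, the retrotransposon-derived Peg10, with a seed match of its own, was at −0.04 (SE 0.07) and the sarcoglycan gene Sgce at −0.07 (SE 0.06). Usp29 had 397 to 600 counts in miR29Nestin and 429 to 540 in miR29WT libraries, and Peg10 had 233 to 254 in miR29Nestin and 224 to 291 in miR29WT libraries. Neither gene with a match stood apart between the groups. The transcription factor gene Plagl1 was at −0.12 (SE 0.09), the cell cycle inhibitor gene Cdkn1c at 0.0046 (SE 0.08), and Impact, a regulator of the translation kinase GCN2, at −0.05 (SE 0.05). The non-coding Peg13 was at −0.11 (SE 0.05) and Trappc9, the trafficking gene that contains it, at 0.05 (SE 0.06). The splicing factor-related Zrsr1 was at −0.06 (SE 0.06). The limma adjusted p of these tested genes ran from 0.16 for Peg13 to 0.98 for Cdkn1c.

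In Dnmt3a-mi5 cortex no imprinted gene was called, with 26 tested, where limma called 13 of 10670 genes (0.122%), 0.0281% higher and 0.0937% lower. At an unadjusted p under 0.05 there was 1 imprinted gene, where 14.7% of all tested genes passed. The median log2 difference was 0.0084, against 0.0018 over all tested genes, and the median absolute difference was 0.039 against 0.042.

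**Figure D2:**
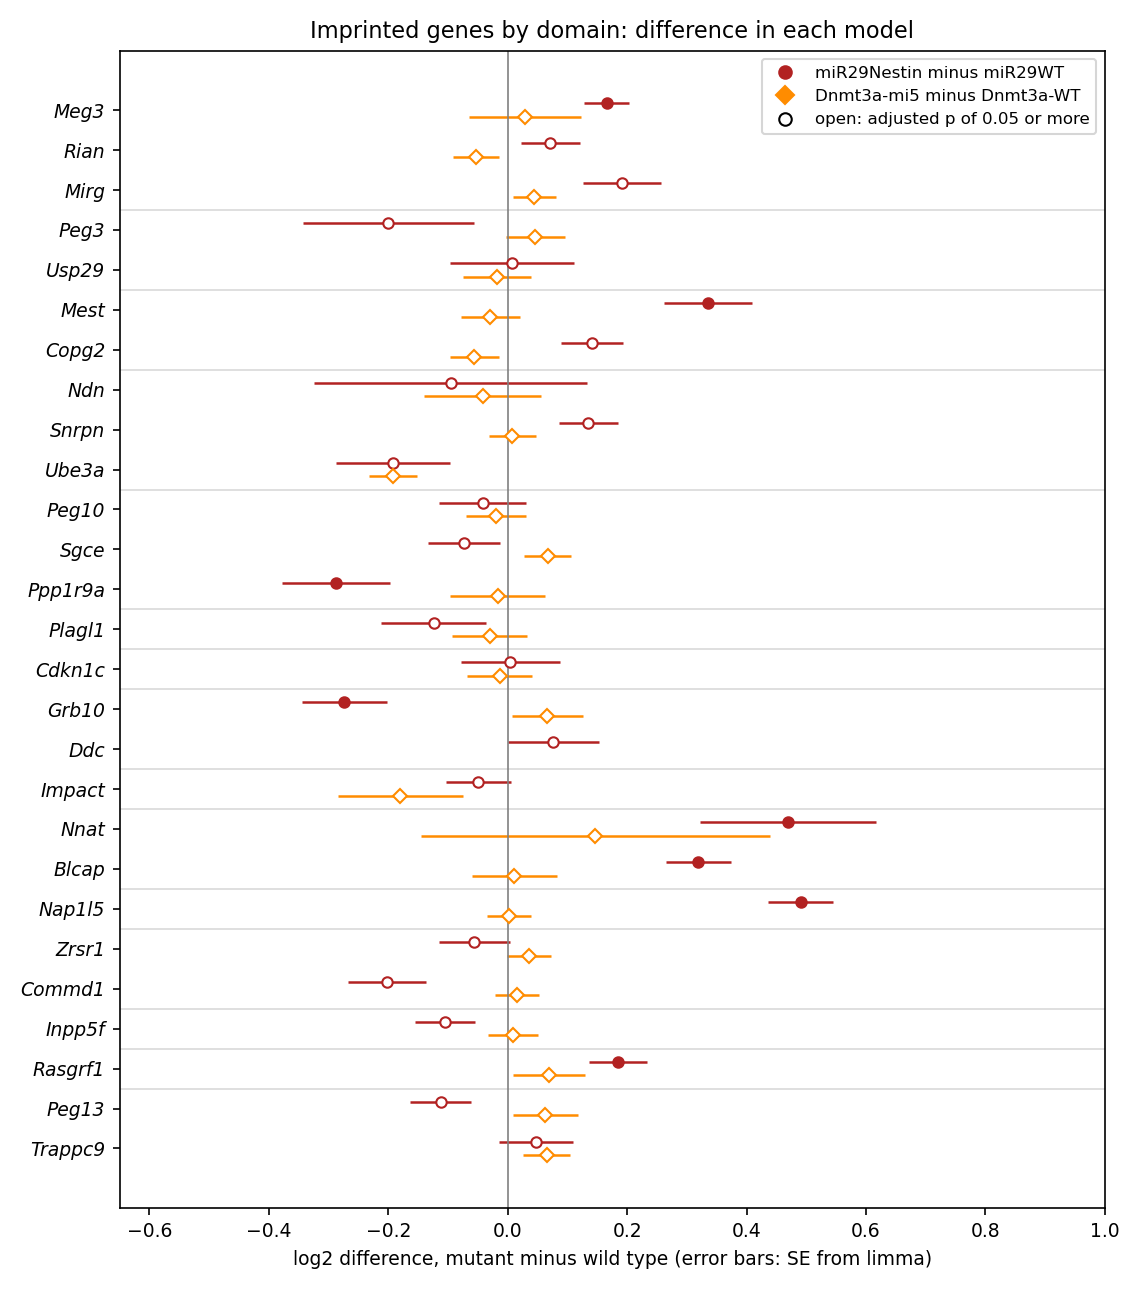
Log2 difference (mutant minus wild type) with its limma standard error for each imprinted gene tested in either table, grouped by domain between grey lines. Circles show miR29Nestin minus miR29WT and diamonds Dnmt3a-mi5 minus Dnmt3a-WT, filled where called. Every diamond is open, and Ube3a, at −0.19, is the lowest of them.

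Each gene called in miR29Nestin cortex had overlapping groups in the Dnmt3a table. Nap1l5 had 3198, 3272, 3278 and 3186 counts in Dnmt3a-mi5 libraries, against 3174, 3276, 3111 and 3348 in Dnmt3a-WT libraries, a log2 difference of 0.0030 (SE 0.04). The Nap1l5 values were nearly flat over all 8 libraries. Blcap had 773, 709, 706 and 778 counts in Dnmt3a-mi5 libraries, against 599, 888, 732 and 733 in Dnmt3a-WT libraries (0.01, SE 0.07). Mest had 399, 361, 400 and 332 counts in Dnmt3a-mi5 libraries, against 346, 411, 368 and 420 in Dnmt3a-WT libraries (−0.03, SE 0.05). For Blcap the highest and the lowest of the 8 libraries were both Dnmt3a-WT, and the Mest groups interleaved. Meg3 had 42218, 34590, 37318 and 37943 counts in Dnmt3a-mi5 libraries, against 40533, 33550, 32899 and 42633 in Dnmt3a-WT libraries (0.03, SE 0.09). Rasgrf1 had 4371, 5114, 4367 and 4960 counts in Dnmt3a-mi5 libraries, against 4261, 4581, 4738 and 4252 in Dnmt3a-WT libraries (0.07, SE 0.06). For Rasgrf1, 2 of the 4 Dnmt3a-mi5 libraries exceeded all Dnmt3a-WT libraries. Grb10 had 561, 491, 576 and 478 counts in Dnmt3a-mi5 libraries, against 422, 561, 478 and 499 in Dnmt3a-WT libraries (0.07, SE 0.06). Ppp1r9a had 5162, 4969, 5536 and 4492 counts in Dnmt3a-mi5 libraries, against 5725, 4451, 4892 and 5374 in Dnmt3a-WT libraries (−0.02, SE 0.08). Nnat, whose libraries are described below, was at 0.15 (SE 0.29). The limma adjusted p of these 8 genes ran from 0.65 to 0.98. The tables differ in age, kit and normalisation, so the difference between the models was not tested.

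Ube3a was the imprinted gene with the smallest p in Dnmt3a-mi5 cortex (chr7:59228750-59311536, plus strand). It had 948, 865, 969 and 949 counts in Dnmt3a-mi5 libraries, against 1178, 1109, 1102 and 1064 in Dnmt3a-WT libraries. Every mutant library lay below every wild type library, which held for 6.67% of all tested genes. No tested imprinted gene had its mutant libraries all above, as 5.33% of all tested genes did. The log2 difference was −0.19 (SE 0.04, unadjusted p 7.46e-04, limma adjusted p 0.13). An additive 2-level effect had been removed from this table before deposit. A fit without a term for it gave a limma adjusted p of 0.0495. That fit does not allow for the degree of freedom used by the removal, so its p-values tend to be too small. Within the library sets the Ube3a difference was −0.25 (set 1) and −0.13 (set 2). Snhg14, whose long transcript runs antisense over Ube3a, averaged 101 ± 6.28 counts in Dnmt3a-mi5 and 122 ± 17.9 in Dnmt3a-WT cortex (SD, n = 4 each; log2 difference −0.09, limma adjusted p 0.35). Markers of cortical excitatory neurons, in which Ube3a is imprinted, summed to 57758 to 63779 counts in Dnmt3a-mi5 and 63786 to 67892 in Dnmt3a-WT libraries, with none of 8 called. Astrocyte marker sums were 53328 to 55406 in Dnmt3a-mi5 and 60835 to 65119 in Dnmt3a-WT libraries, also with none of 8 called. The part of cell composition in the Ube3a values was not tested.

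**Figure D3:**
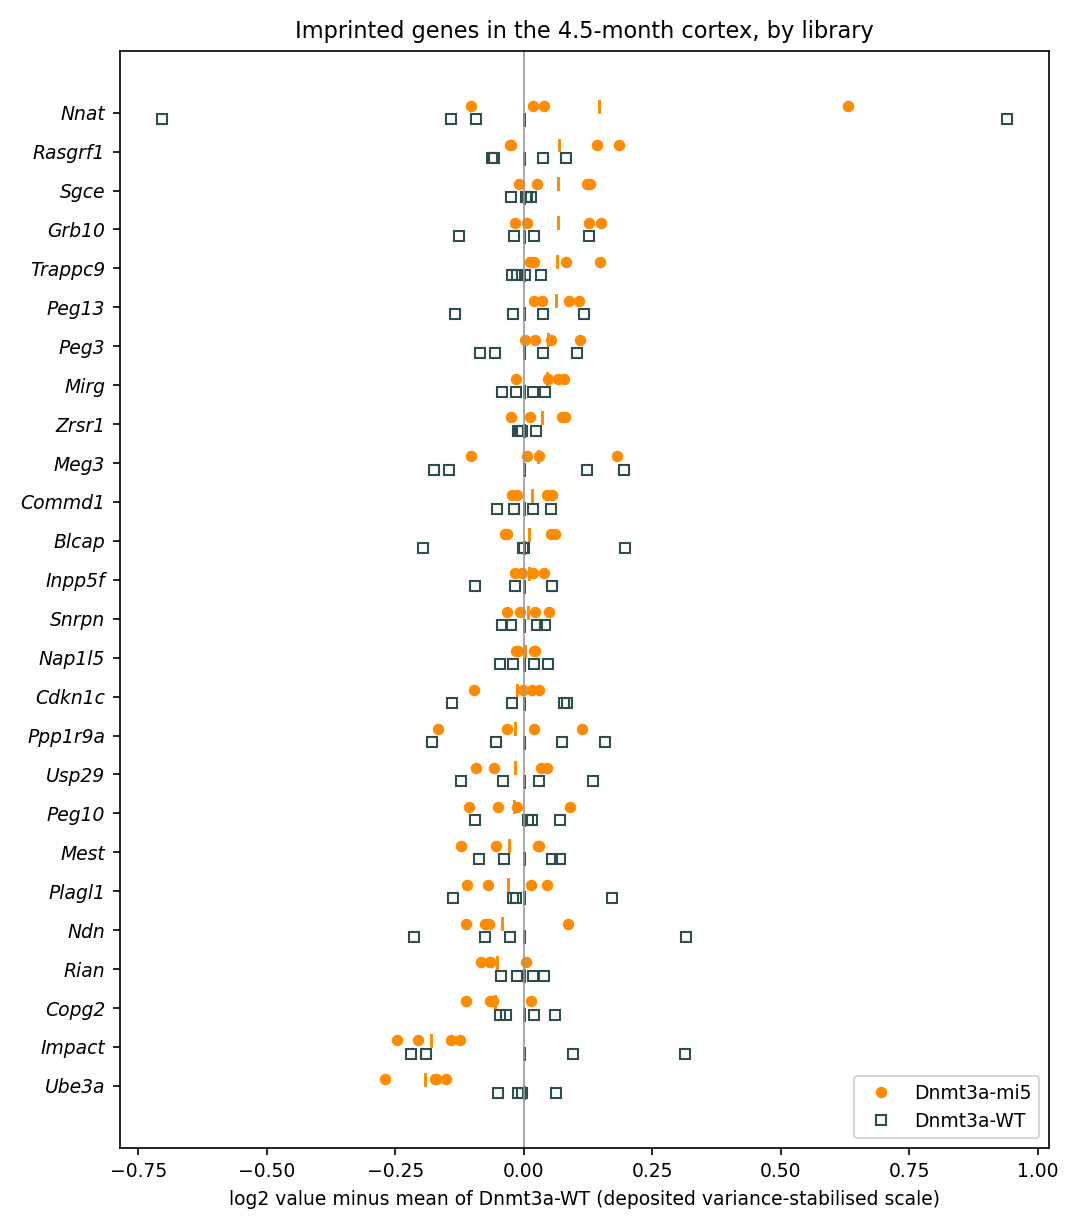
Imprinted genes tested in 4.5-month cortex, ordered by difference. Each point is 1 library (Dnmt3a-mi5 filled circles, Dnmt3a-WT open squares), as its deposited log2 value minus the Dnmt3a-WT mean of that gene, with group means as short lines. The Ube3a groups are apart, and Nnat spreads most, with Dnmt3a-WT values on both sides of all Dnmt3a-mi5 values.

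Ddc, below the filter there, was the other imprinted gene whose groups did not overlap. It had 42.7, 34.7, 33.8 and 38.9 counts in Dnmt3a-mi5 libraries, against 50.1, 47.6, 56.8 and 46.4 in Dnmt3a-WT libraries. The fit with no filter gave −0.10 (SE 0.04) and a limma adjusted p of 0.36. Impact had the next largest difference below 0, at −0.18 (SE 0.10, limma adjusted p 0.47). It had 2504, 2469, 2345 and 2269 counts in Dnmt3a-mi5 libraries, against 2375, 2978, 3524 and 2319 in Dnmt3a-WT libraries, where libraries 2 and 3 stood above all others. All other tested genes lay between −0.06 and 0.15. Snrpn ran from 5448 to 5789 counts in Dnmt3a-mi5 and from 5414 to 5760 in Dnmt3a-WT libraries, and Peg3 from 2899 to 3151 in Dnmt3a-mi5 and from 2705 to 3139 in Dnmt3a-WT libraries. The transcripts of the Dlk1-Dio3 domain also overlapped, with Rian at 3244 to 3473 counts in Dnmt3a-mi5 and 3343 to 3569 in Dnmt3a-WT libraries, and Mirg at 85.9 to 105 in Dnmt3a-mi5 and 80.7 to 96.9 in Dnmt3a-WT libraries. Copg2 ran from 781 to 883 counts in Dnmt3a-mi5 and from 833 to 923 in Dnmt3a-WT libraries.

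Some imprinted genes varied widely between libraries of the same group. The within-group SD of Nnat was 0.54 log2 units in the Dnmt3a table, above 99.9% of tested genes, and 0.28 in the miR29 table, above 99.2%. That of Ndn was 0.17 in the Dnmt3a table (above 98.1%) and 0.45 in the miR29 table (above 99.8%), and Peg3 reached 0.27 in the miR29 table (above 99.1%). Copg2 and Inpp5f were among the steadiest in the miR29 table, at 0.04 and 0.03. Over all imprinted genes tested, the median SD was 0.08 in the Dnmt3a table, against 0.05 over all tested genes, and 0.07 in the miR29 table, against 0.08.

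Of the 34 imprinted genes, 7 were highest in the same library of each group of the Dnmt3a table. Nnat had 1094, 1117, 979 and 1861 counts in Dnmt3a-mi5 libraries, against 535, 2391, 944 and 988 in Dnmt3a-WT libraries. Dlk1 had 50.6, 23.5, 35.5 and 70.3 counts in Dnmt3a-mi5 libraries, against 1.62, 126, 22.9 and 26.8 in Dnmt3a-WT libraries. The fourth Dnmt3a-mi5 library and the second Dnmt3a-WT library were the highest of their groups for both genes, and for Ndn, Magel2, Blcap, Plagl1 and Trappc9 as well. The share of all genes that were highest in this pair of libraries is not given here, so the count has no background. Other variable genes peaked elsewhere: Impact, with an SD of 0.18, in Dnmt3a-mi5 1 and Dnmt3a-WT 3, Meg3 (0.16) in Dnmt3a-mi5 1 and Dnmt3a-WT 4, and Ppp1r9a (0.13) in Dnmt3a-mi5 3 and Dnmt3a-WT 1. Nnat, Dlk1, Ndn, Magel2, Blcap and Plagl1 were lowest of the Dnmt3a-WT group in library 1. Without Dnmt3a-WT 2 the Nnat difference was 0.52 (limma adjusted p 0.095), and without Dnmt3a-WT 1 it was −0.14. The leptomeningeal marker sum was highest in the same 2 libraries, at 2113 in Dnmt3a-mi5 4 and 2176 in Dnmt3a-WT 2, and ran from 1281 to 1829 in the other libraries. The hypothalamic marker sum was 121 in Dnmt3a-WT 2 and 41.4 in Dnmt3a-mi5 4, against 37.1 to 68.0 in the others. Choroid plexus markers summed to 6909, 4486, 353 and 14258 counts in Dnmt3a-mi5 libraries, against 138, 5608, 12116 and 494 in Dnmt3a-WT libraries. That sum was highest in Dnmt3a-mi5 4 but in Dnmt3a-WT 3. The Dnmt3a-WT libraries where it was high, 2 and 3, were those where Impact stood high. In Dnmt3a-mi5 4, by contrast, Impact was the lowest of its group, at 2269 counts. The part of such tissue in these gene values was not tested.

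**Figure D4:**
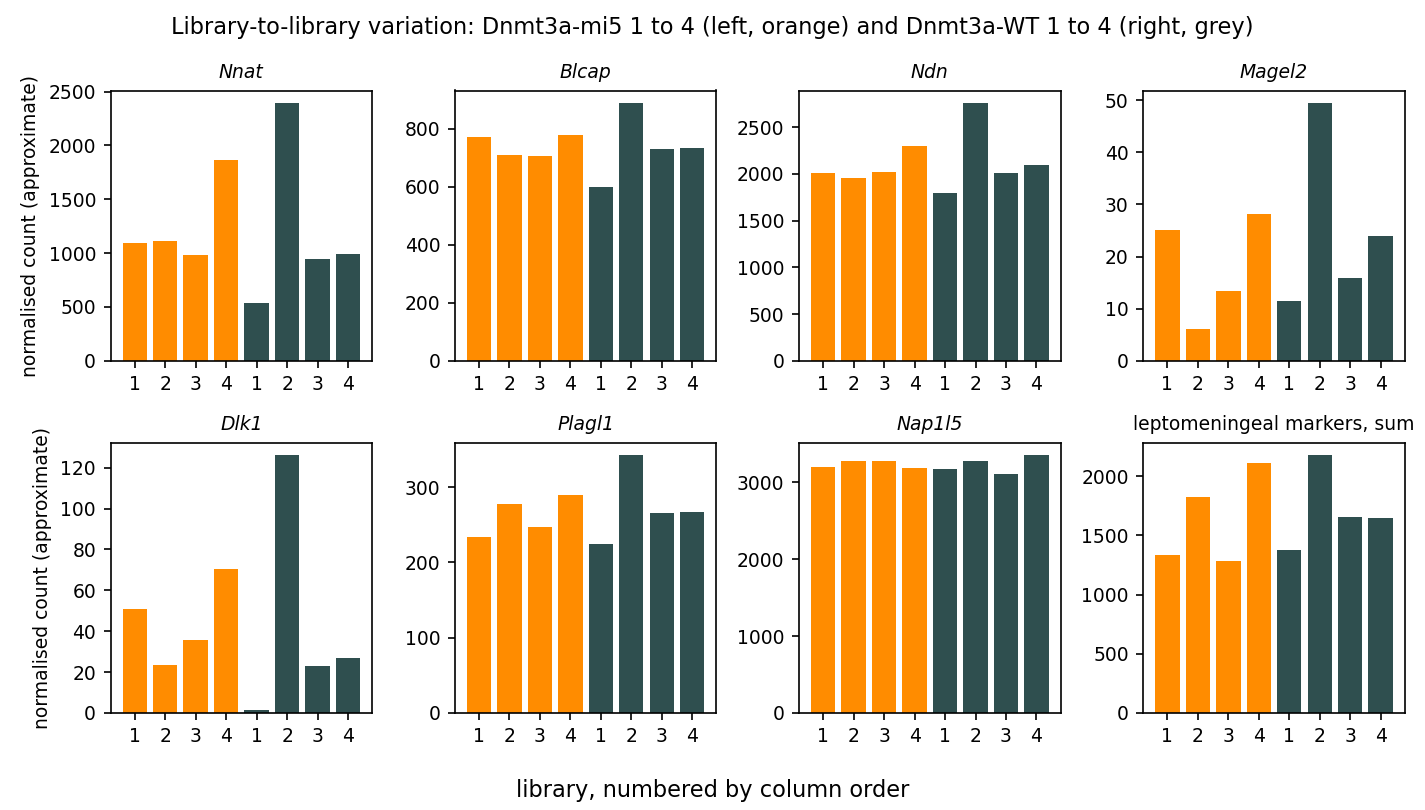
Recovered normalised counts in each library of the Dnmt3a table for 7 imprinted genes, with the sum of the leptomeningeal markers in the last panel (Dnmt3a-mi5 libraries left, Dnmt3a-WT right). Nnat, Dlk1, Ndn and Magel2 peak in Dnmt3a-mi5 4 and Dnmt3a-WT 2, and Nap1l5 is nearly level.

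A wider list of 60 other genes, taken as imprinted, was also split between directions. The data hold no allele information, so the imprinting of these genes was not checked. Of the 60 genes, 39 were tested in the miR29 table, with 4 called higher and 5 lower. Over all tested genes 9.02% were called higher and 10.0% lower. Klhdc10, near Mest, averaged 2711 ± 31.0 counts in miR29Nestin and 1893 ± 5.83 in miR29WT cortex (log2 difference 0.48, limma adjusted p 7.59e-05). Igf2, the paternally expressed growth factor gene, averaged 1162 ± 146 counts in miR29Nestin and 585 ± 170 in miR29WT cortex (0.84, limma adjusted p 0.0028). Igf2 is known to be made by leptomeninges and choroid plexus. The leptomeningeal marker sums are given above beside Dlk1, and choroid plexus markers summed to 140, 598 and 145 counts in miR29Nestin and 458, 150 and 111 in miR29WT libraries. The part of these tissues in the Igf2 values was not tested. Crhr1, a receptor for corticotropin-releasing hormone, averaged 297 ± 32.7 counts in miR29Nestin and 547 ± 27.2 in miR29WT cortex (−0.63, limma adjusted p 1.57e-04). Kcnk9, a maternally expressed potassium channel gene, averaged 54.7 ± 7.55 counts in miR29Nestin and 105 ± 13.5 in miR29WT cortex (−0.38, limma adjusted p 0.0044), each ± being the SD of 3 libraries. In the Dnmt3a table limma called 0 of the 37 tested.

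A list of 37 held genes that set, keep or read DNA methylation, and histone and chromatin genes such as Ezh1 and Suz12. Of this list, 30 genes were tested in the miR29 table, with 6 called higher and 1 lower. The higher ones with the smallest p besides Dnmt3a were Tet3, Tdg and Tet1, which act in active demethylation. Tet3 averaged 2209 ± 154 counts in miR29Nestin and 1088 ± 81.5 in miR29WT cortex (SD, n = 3 each; log2 difference 0.91, limma adjusted p 1.07e-05). Tdg averaged 222 ± 11.6 counts in miR29Nestin and 146 ± 12.6 in miR29WT cortex (0.34, adjusted p 0.0042), and Tet1 averaged 263 ± 49.6 counts in miR29Nestin and 151 ± 13.8 in miR29WT cortex (0.46, adjusted p 0.0043). Setdb1, the histone methyltransferase recruited by TRIM28, was also called higher (0.20, limma adjusted p 0.027), as was Ezh1 (0.20, limma adjusted p 0.027). Other genes of the list with roles in keeping methylation did not pass: Zfp57 was at −0.13 (limma adjusted p 0.29), Trim28 at 0.09 (adjusted p 0.41), Zfp445 at −0.02 (adjusted p 0.89) and Dnmt1, the maintenance methyltransferase, at 0.01 (adjusted p 0.92). Of the list, 28 were tested in the Dnmt3a table, where Dnmt3a was the gene called (0.70, limma adjusted p 0.0015).

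The promoters of imprinted genes were searched for TGCCGC, the hexamer that ZFP57 binds when it is methylated, on both strands, in RefSeq windows from 250 bases before to 50 after each gene start (GRCm38.p6). Of 37 windows, covering 27 of the 34 genes, 11 held it (29.7%, with 2 overlapping Mest windows that hold the same matches), against 19.8% of 12127 windows of genes tested in the miR29 table and 11.6% of all 32851 windows. Both matches of Nap1l5, the gene with the smallest p, are shown as 30 bases of its minus strand with the hexamer in capitals.
Nap1l5, chr6:58907133-58907162: cagccattcactTGCCGCgagccgcgaagc
Nap1l5, chr6:58907082-58907111: gccgtcagcgttTGCCGCatcttcagacgc
Counted by gene, 10 of the 27 held a match. Among the called genes these were Nap1l5, Nnat, Mest, Meg3 and Grb10, while Blcap, Rasgrf1 and Ppp1r9a had windows with no match. The others with a match were Snrpn, Plagl1, Copg2, Commd1 and Zim1, of which none was called in the unblocked fit. Methylation was not measured in these files.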

How the data were processed

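The authors deposited DESeq2 variance-stabilised log2 values in 2 tables, normalised separately. Per the submitters' processing notes, the tools were Salmon, STAR, cutadapt and DESeq2, given with no version or role. Kits were stranded and reads paired-end, per the labels' protocols. The imprinted genes and the gene lists were chosen with earlier results of these data known.

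Normalised counts were recovered by inverting the transform. In the miR29 table whole reads gave size factors, but the Dnmt3a counts are approximate, because set means (Dnmt3a-WT 1, 2 and Dnmt3a-mi5 1, 2 against the rest) were equal to within 5.5e-09, the mark of a removed additive effect. That table repeats its column names, so its libraries are numbered by column order. limma 3.58.1 in R 4.3.3 (empirical Bayes with trend) was fitted on each table, with a term for the removed effect in the Dnmt3a table, after a filter equal to 48.0 counts (miR29) and 80.1 counts (Dnmt3a). The p-values measure the spread between these libraries, which the labels do not tie to separate litters. The main miR29 fit had no term for pairing. Replicate numbers were taken as pairs only in the alternative fit with the replicate block. Deviations from the group means correlated at 0.34, 0.20 and 0.19 between same-numbered libraries. The fits were tested on simulated data. Values were printed in every library for genes that were called or whose groups did not overlap. From the other lists, up to 4 called genes with the smallest p were named, and Setdb1 and Ezh1 besides. Sequences came from RefSeq and GENCODE M21, and the parental alleles from general knowledge. Figures were drawn with matplotlib 3.10.9 (Python 3.11.15).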

Additional observations from a re-analysis of the deposited data

Results flagged for a closer look

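Of 68 groups of 4 libraries checked (34 genes in Dnmt3a-mi5 and in Dnmt3a-WT), 1 had a library standing apart from the others. Airn had 4.73, 3.16, 5.41 and 5.36 counts in Dnmt3a-mi5 libraries, against 5.42, 2.86, 2.93 and 2.61 in Dnmt3a-WT libraries. On the log2 scale the gap of Dnmt3a-WT 1 to the next library was 0.866 of the group's range, above Dixon's 95% critical value for 4 libraries. Chance passes about 1 in 20 such groups, and these levels are a few reads.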

How the results depend on the processing

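In the miR29 fit, 8 imprinted genes were called, and between 6 and 9 under other filters, scales, centring, a robust prior or sex as a term. The count was 5 with no mean-variance trend and 11 with the replicate block, which also called 3037 genes in all against 2289. Leaving out 1 library gave 3 to 8 imprinted genes (3 without miR29Nestin 2, and 5 without miR29WT 1 or without miR29WT 3), 1384 to 2313 genes in all (1474 without miR29Nestin 2, 1384 without miR29WT 2, 1419 without miR29WT 3), and a median imprinted difference of −0.044 to 0.043. The causes were not tested. Called genes kept their direction in every alternative. In the Dnmt3a fit, 13 genes were called in all, 4 with a stricter filter, 85 with no term for the removed effect and 1 to 82 without 1 library (82 without Dnmt3a-WT 2, at most 6 without any other). No imprinted gene was called except Ube3a, the 1 called with no term for the removed effect, a fit whose p-values tend to be too small. No paired analysis was possible because each replicate number in the column names of the Dnmt3a table stands on 2 columns of a group. Low counts kept Dlk1, Zim1, Magel2, Mkrn3, H19, Airn and Phlda2 below the filter. The miR29 fit with no filter called Dlk1 (limma adjusted p 2.96e-04) and none of the others, with Phlda2 at 0 and not tested.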
